A study of Homo sapiens with 8 samples.

Results

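The D-loop sites described here are the crosslink sites at positions 14 to 21 of cytosolic tRNA, counted from 1 at the 5′ end of each tRNA reference on its sense strand. There were 1445 such sites among 8363 tRNA sense sites and 18831 crosslink sites in all. They lay on 225 of 252 tRNA references and on all 50 tRNA families, a family being the references that share an amino acid and an anticodon, such as tRNA-Gly-CCC. The family tRNA-Asn-26 is an exception, since its reference name gives a number in place of an anticodon. Positions follow each reference and were not aligned to the standard tRNA numbering, so that the same number can be a neighbouring base in families with an extra or a missing loop base. Counts at a position were summed over the references of a family and divided by all sense counts of that family in the same library.

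The libraries were made by iCLIP, in which the ends of cDNAs from protein-bound RNA lie at or next to the contacted base. Whether the deposited sites were shifted from the cDNA end is not given, so that a position here need not be the contacted base itself. Flp-In T-REx 293 cells, which descend from the human embryonic kidney line HEK293, carried 3xFLAG-DUS1L or 3xFLAG-DUS2L under tetracycline control. All 4 groups received tetracycline at 1 µg/mL for 12 h, followed by fresh medium with tetracycline at the same dose for a further 12 h. In the treated groups that medium also held 100 µM 5-chlorouridine (5-ClUrd). The groups were DUS1L with 5-ClUrd, DUS1L untreated, DUS2L with 5-ClUrd and DUS2L untreated, each with 2 libraries that the series describes as biological replicates. The tagged enzymes were expressed in addition to the cells' own copies, and no library from cells without a tagged enzyme was analysed here.

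The D loop lies between the acceptor stem and the anticodon stem of the folded tRNA and is named after dihydrouridine, which dihydrouridine synthases make there by reducing uridine. In budding yeast, Dus1 acts at positions 16 and 17 and Dus2 at position 20 of the standard numbering, which need not be the reference positions of the same number used here. 5-ClUrd is a uridine analogue that cells put into RNA, and its base can hold such an enzyme in a bond that is not released.

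D-loop sites held 155387 and 100634 counts in DUS1L libraries with 5-ClUrd, against 15376 and 1065 in untreated DUS1L libraries. They held 78689 and 74337 counts in DUS2L libraries with 5-ClUrd, against 22356 and 30417 in untreated DUS2L libraries. Untreated DUS1L replicate 2 stood apart, with 7395 counts in all against at least 130576 in each other library, and 3 of its counts are 0.0409% of its tRNA sense counts. Results for untreated DUS1L rest on this thin library, and its part in them is given as values without it. The number of D-loop sites with a count was 1091 and 991, against 448 and 134, in DUS1L, and 1083 and 1082, against 602 and 618, in DUS2L. No D-loop site exceeded 1154 counts in any library, and sites above 500 counts held between 0% and 55.1% of a library's D-loop counts. Counts on the antisense strand of positions 14 to 21 were between 0 and 45 per library.

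By pooled counts, the D loop took a similar part of all tRNA crosslinks in 3 of the 4 groups and less in untreated DUS1L. Its share of tRNA sense counts was 19.05% and 18.7% in DUS1L libraries with 5-ClUrd, against 10.8% and 14.5% in untreated ones, and 21.8% and 21.4% in DUS2L libraries with 5-ClUrd, against 21.3% and 20.5% in untreated ones. The 95% Wilson intervals, which cover counting error only, reached from 18.96% to 19.13% for DUS1L with 5-ClUrd replicate 1 and from 13.7% to 15.3% for untreated DUS1L replicate 2. In DUS1L the means were 18.9% ± 0.243 with 5-ClUrd and 12.7% ± 2.64 untreated (SD, n = 2 each), 6.22 percentage points apart. In DUS2L they were 21.6% ± 0.260 with 5-ClUrd and 20.9% ± 0.605 untreated (SD, n = 2 each), 0.703 points apart. The libraries with and without the analogue did not overlap in either enzyme. For each difference the two-sided exact permutation p was 0.333, the smallest value that 2 against 2 libraries allow. When each of the 29 families measured in all 8 libraries was given the same weight, the difference was 6.12 points in DUS1L, and it was 0.407 points with overlapping libraries in DUS2L (exact p = 0.667). With reference sites above 500 counts left out, the pooled differences were 2.81 points in DUS1L and −2.38 points in DUS2L, and with each site counted once whatever its counts they were −0.679 and −0.494 points. Without the leucine, serine and selenocysteine tRNAs the DUS2L difference was −2.40 points, so that its direction depends on the way sites and families are weighted. The direction of the pooled DUS1L difference also changed, with each site counted once.

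At the edges of the window, position 13 held 3.20% and 3.60% of tRNA counts in DUS1L with 5-ClUrd, against 1.92% and 1.19% untreated, and position 14 held 2.55% and 2.49%, against 0.761% and 1.50%. In DUS2L, position 13 held 1.73% and 2.37% with 5-ClUrd, against 1.23% and 1.37% untreated, and position 14 held 1.51% and 1.96%, against 1.19% and 1.28%. Position 13 was higher than position 14 in every library except untreated DUS1L replicate 2, so that crosslinking ran on past the 5′ edge. At the 3′ edge, position 22 was lower than position 21 in every library. Position 21 held 1.20% and 1.23% in DUS1L with 5-ClUrd, against 0.609% and 0.545% untreated, and position 22 held 0.817% and 0.613%, against 0.204% and 0.0818%. In DUS2L, position 21 held 1.03% and 1.02% with 5-ClUrd, against 0.784% and 0.759% untreated, and position 22 held 0.626% and 0.345%, against 0.414% and 0.414%.

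Within the window the enzymes had different profiles. Position 15 had more counts than any other D-loop position in DUS1L and held 24.8% and 26.4% of D-loop counts with 5-ClUrd, against 30.6% and 40.0% untreated. In DUS2L the counts were spread over positions 15 to 19, and position 15 held 13.8% and 15.9% with 5-ClUrd, against 15.2% and 16.3% untreated. Position 15 was the leading position in 25 of the 44 families with a leading position in DUS1L with 5-ClUrd and in 14 of 27 untreated. In DUS2L with 5-ClUrd it led in 7 of 49 families, whereas position 16 led in 14, position 17 in 9 and position 20 in 8. In untreated DUS2L, position 16 led in 10 of 43 families, position 15 in 9, position 17 in 8 and position 20 in 2.

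**Figure D1:**
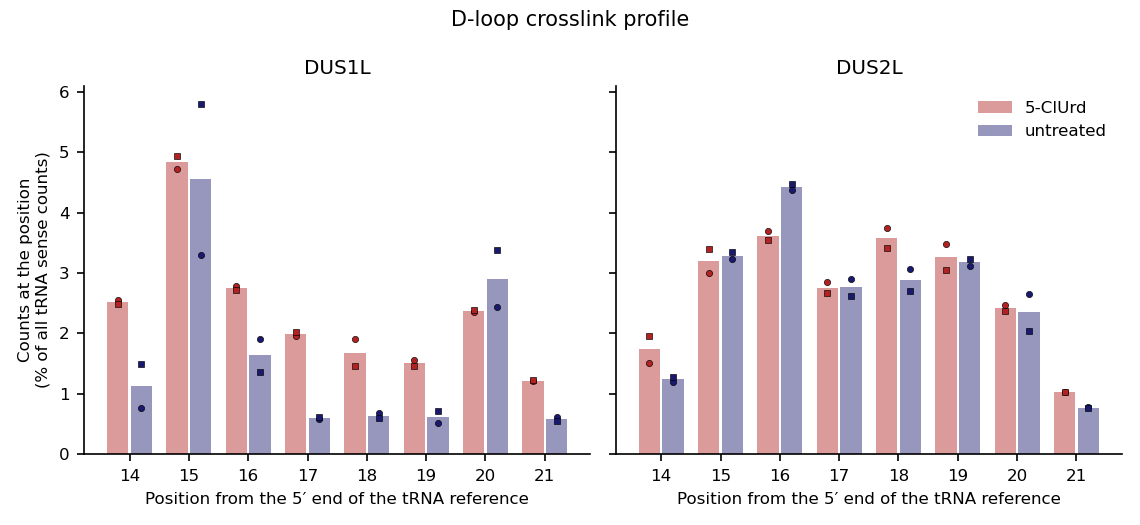
Share of all tRNA sense counts (%) at each D-loop position for DUS1L and DUS2L, with 5-ClUrd in red left of untreated in dark blue. Bars are means of 2 libraries, circles are replicate 1 and squares are replicate 2. Position 15 has the tallest bars in DUS1L, and in DUS2L the tallest bars are spread over positions 15 to 19.

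Reference positions 16 and 17 together held 4.75% and 4.74% of tRNA counts in DUS1L with 5-ClUrd, against 2.48% and 1.98% untreated. In DUS2L they held 6.54% and 6.20% with 5-ClUrd, against 7.27% and 7.10% untreated. The libraries did not overlap in either enzyme, and the values were higher with the analogue in DUS1L and lower with it in DUS2L. The same held for the mean over the 29 families, which was 4.85% ± 0.227 with 5-ClUrd and 2.30% ± 0.00687 untreated in DUS1L, and 4.41% ± 0.0371 with 5-ClUrd and 5.48% ± 0.595 untreated in DUS2L (SD, n = 2 each). In DUS1L, positions 14, 18, 19 and 21 also rose without overlap, by 1.39, 1.04, 0.895 and 0.638 points of tRNA counts. Position 15 overlapped there, and position 20 differed by −0.538 points. In DUS2L, position 16 differed by −0.810 points without overlap, whereas position 17 overlapped. Positions 14, 18 and 21 were higher there without overlap. The smallest exact p that 2 against 2 libraries allow is 0.333.

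Reference position 20 held 2.36% and 2.39% of tRNA counts in DUS1L with 5-ClUrd, against 2.44% and 3.38% untreated. It held 2.47% and 2.37% in DUS2L with 5-ClUrd, against 2.66% and 2.04% untreated. The DUS2L libraries overlapped, and the untreated DUS1L libraries were the higher ones. With equal weight per family, the share at position 20 was 1.84% ± 0.0977 in DUS2L with 5-ClUrd and 1.16% ± 0.179 untreated (SD, n = 2 each). In DUS1L it was 2.16% ± 0.0170 with 5-ClUrd and 2.36% ± 1.42 untreated (SD, n = 2 each). Of all counts at position 20, tRNA-Val-CAC had 16.1% and 18.9% in DUS1L with 5-ClUrd, against 53.1% and 65.3% untreated, and 27.01% and 24.2% in DUS2L with 5-ClUrd, against 14.8% and 15.6% untreated. The family's part was thus largest in untreated DUS1L. The reference shared by 8 of its genes had 1154 and 1025 counts there in DUS1L with 5-ClUrd, against 1047 and 133 untreated. In DUS2L it had 930 and 775 counts with 5-ClUrd, against 188 and 248 untreated.

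Families differed in their D-loop share far more than the groups did. Among families with at least 10 counts in both libraries of a group, the mean D-loop share was between 0% and 89.4% over 47 families in DUS1L with 5-ClUrd, with a median of 16.4%, and reached 64.6% over 29 families untreated, with a median of 8.33%. In DUS2L it was between 0.672% and 89.2% over 49 families with 5-ClUrd, with a median of 18.2%, and between 0.397% and 82.1% over 48 families untreated, with a median of 11.9%.

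Families were ranked by their treated share among those with at least 500 counts in each treated library of the enzyme. In DUS2L the proline tRNAs tRNA-Pro-AGG and tRNA-Pro-CGG and the glutamate tRNA tRNA-Glu-CTC were contacted mainly in the D loop. tRNA-Pro-AGG had 82.8% and 87.3% of its counts there with 5-ClUrd, against 79.9% and 81.2% untreated, and tRNA-Pro-CGG had 77.4% and 84.5%, against 84.8% and 78.5%. tRNA-Glu-CTC had 63.6% and 70.5% with 5-ClUrd, against 82.2% and 82.0% untreated. The libraries of tRNA-Pro-CGG overlapped and those of tRNA-Glu-CTC were lower with the analogue, without passing the test. Next came tRNA-Lys-CTT, with 54.3% and 52.3% with 5-ClUrd, against 43.1% and 30.5% untreated, and tRNA-Val-AAC, with 54.5% and 47.3%, against 48.1% and 52.6%. The other families of this size above 30% on average with 5-ClUrd were tRNA-Leu-AAG, tRNA-Val-CAC, tRNA-Gln-CTG, tRNA-Gly-CCC and tRNA-Gly-GCC. Among families with fewer counts, tRNA-Tyr-ATA (89.7% and 88.8%), tRNA-Asn-26 (70.2% and 80.6%) and tRNA-Ile-GAT (44.8% and 57.4%) were also high with 5-ClUrd. The lowest of the larger families were tRNA-Arg-ACG, with 0.629% and 0.715% with 5-ClUrd, against 0.402% and 0.529% untreated, and tRNA-Leu-CAG, tRNA-Arg-TCG, tRNA-Ser-GCT and tRNA-Ile-TAT, none of them above 1.78% in a treated library.

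In DUS1L the alanine and valine tRNAs stood high, and so did tRNA-Lys-CTT, tRNA-Gln-CTG and tRNA-His-GTG. tRNA-Ala-TGC had 37.8% and 38.8% of its counts in the D loop with 5-ClUrd, against 14.4% and 5.26% untreated, and tRNA-Ala-CGC had 38.2% and 41.8%, against 11.3% and 23.7%. tRNA-Val-CAC had 38.2% and 43.1% with 5-ClUrd, against 41.1% and 55.1% untreated, and tRNA-Val-TAC had 32.5% and 37.2%, against 50.2% and 79.0%. The third alanine family, tRNA-Ala-AGC, had 33.2% and 31.9% with 5-ClUrd, against 4.83% and 36% untreated. tRNA-Ala-TGC and tRNA-Ala-CGC were thus higher with the analogue and tRNA-Val-TAC lower, while the libraries of tRNA-Ala-AGC and tRNA-Val-CAC overlapped. The third valine family, tRNA-Val-AAC, had 38.2% and 36.0% with 5-ClUrd, against 44.3% and 10.3% untreated. For tRNA-Lys-CTT the values were 36.8% and 33.8%, against 36.5% and 55.5%. For tRNA-Gln-CTG they were 32.5% and 33.9%, against 32.1% and 0%, and for tRNA-His-GTG 28.0% and 26.9%, against 10% and 6.67%. The highest value belonged to tRNA-Tyr-ATA, a minor tyrosine tRNA, with 87.8% and 90.9% with 5-ClUrd, against 41.7% untreated in replicate 1 (15 of 36 counts) and 1 of 1 count in replicate 2. Some leucine and serine tRNAs, which carry a long variable arm, were at the low end: tRNA-Leu-CAG had no D-loop count in any DUS1L library, and tRNA-Ser-AGA had 0.795% and 0.524% with 5-ClUrd, against 0% and 0% untreated. The DUS1L libraries held too few proline tRNA counts for a comparison, at most 27 in tRNA-Pro-TGG.

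**Figure D2:**
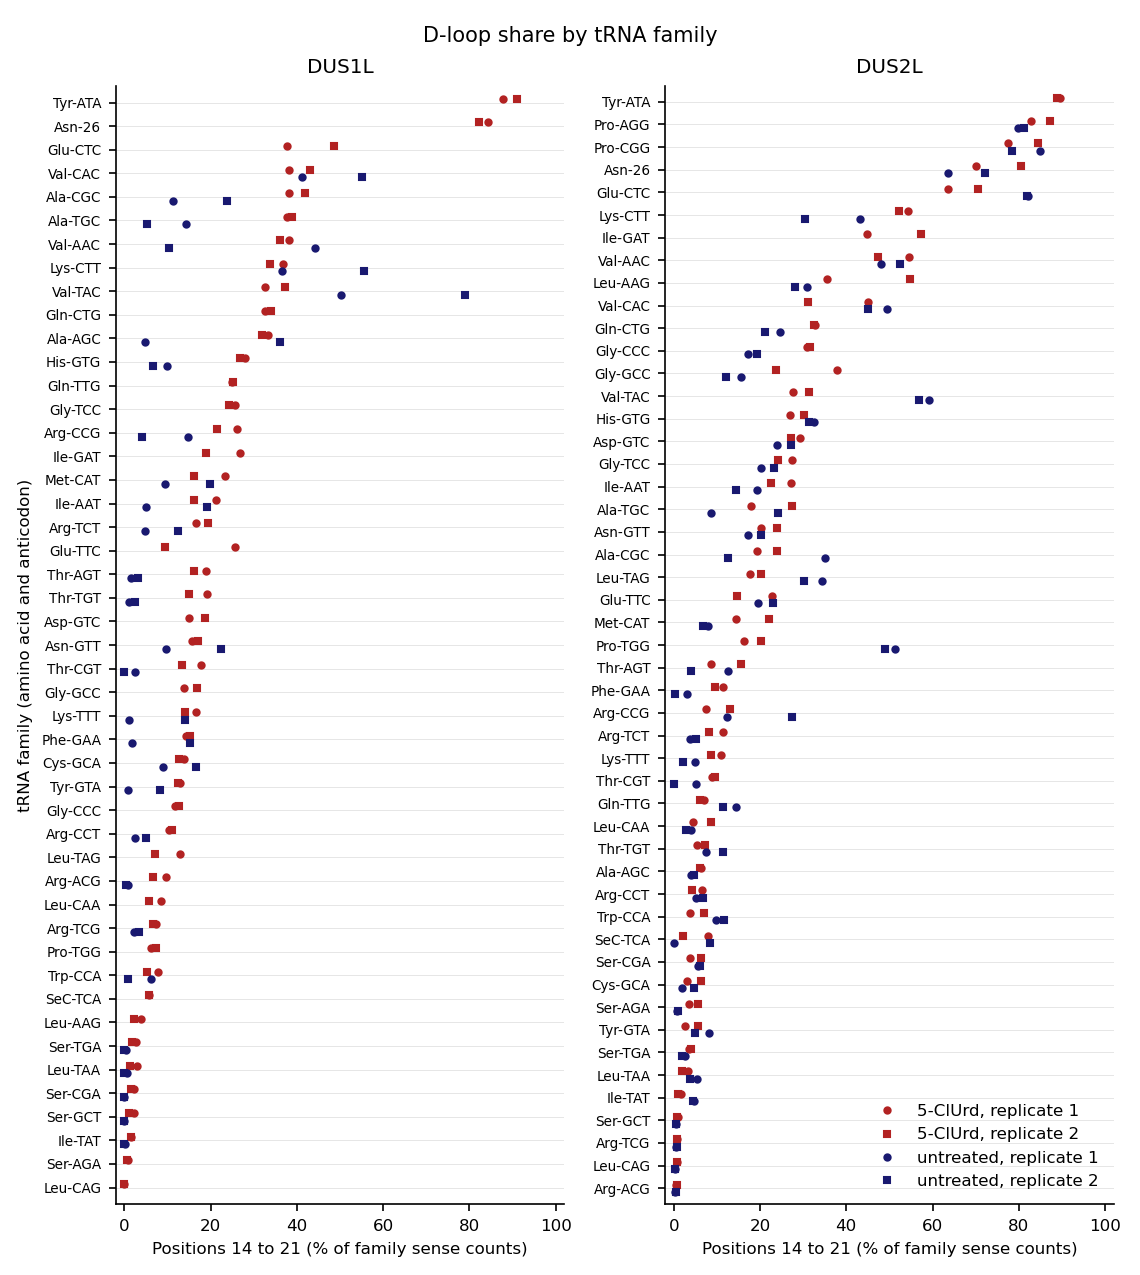
D-loop share of each family's sense counts (%) in DUS1L (47 families) and DUS2L (49 families), with 5-ClUrd in red above untreated in dark blue. A family is drawn for a group where both libraries of that group have at least 10 of its counts. Each point is a library, with circles for replicate 1 and squares for replicate 2. tRNA-Pro-AGG and tRNA-Pro-CGG lie above 77% in all 4 DUS2L libraries.

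The first test asked which family positions took a different share of their family with 5-ClUrd. It was edgeR's quasi-likelihood F test on the counts of every position of every family, with the family total as offset and Benjamini-Hochberg adjustment over all positions tested. A threshold of 0.05 was used. Values are log2 ratios of shares with their standard error. Beyond the 8 largest rises and falls, called positions are named below by tRNA family, a choice made after their values were seen.

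In DUS2L, 34 of 317 D-loop family positions passed, which is 10.7%, against 10.8% of all 1914 family positions tested along the tRNAs. The D loop was thus called no more often than tRNA positions in general. Of these, 18 in 14 families rose (7.52% of all positions) and 16 in 11 families fell (3.29% of all positions). Falls lay in the 5′ part of the loop: positions 14 to 17 had 8 rises and 15 falls among 163 tested, and positions 18 to 21 had 10 rises and 1 fall among 154. The median log2 ratio over the 317 positions was 0.49, beside 0.56 over all positions. With the 39 of them that had no untreated count set to their bound it was 0.18, beside 0.20. Treated libraries lay wholly above untreated ones at 138 of the 317 and wholly below at 59, so that separation alone sets no position apart. Scaled to the library total, which follows the abundance of a position and not its share of the family, 110 rose and 20 fell, and with TMM factors 74 rose and 34 fell. Without untreated replicate 1 or 2 only 3 or 8 positions passed, against 45 or 33 without treated replicate 1 or 2. The calls that held whichever of the 4 libraries was left out were position 20 of tRNA-Gly-CCC and position 16 of tRNA-Pro-TGG.

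Position 20 of tRNA-Gly-CCC had 396 and 755 counts in DUS2L with 5-ClUrd, against 20 and 20 untreated. These were 2.04% and 3.24% of the family with the analogue, against 0.397% and 0.358% without it. Treated libraries lay well above untreated ones, with a log2 ratio of 2.80 ± 0.51 (adjusted p = 3.73e-06, edgeR). Nearly all of these counts, 392 and 752 against 13 and 20, were on the reference of the identical genes tRNA-Gly-CCC-2-1 and tRNA-Gly-CCC-2-2. In GRCh38.p14, tRNA-Gly-CCC-2-1 lies on chromosome 2 from 70248991 to 70249061 and tRNA-Gly-CCC-2-2 on chromosome 16 from 636736 to 636806. Of the counts of that reference, position 20 took 2.29% and 3.53% with 5-ClUrd, against 0.281% and 0.397% untreated. With reference sites above 500 counts left out, which removes this reference site, the log2 ratio of the remaining counts was −2.35. The glycine tRNA rose next to it too: position 18 had 6.22% and 5.34% with 5-ClUrd, against 2.74% and 2.63% untreated (1.11 ± 0.30, adjusted p = 0.00504, edgeR), and position 17 had 4.29% and 4.46%, against 2.26% and 1.99% (1.04 ± 0.34, adjusted p = 0.0290, edgeR; −0.078 with sites above 500 counts left out).

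Position 16 of tRNA-Pro-TGG had 184 and 389 counts in DUS2L with 5-ClUrd, against 372 and 491 untreated, all on the reference of 1 gene, tRNA-Pro-TGG-2-1, on chromosome 11 from 76235825 to 76235896. The share of the family was 4.46% and 5.36% with the analogue, against 17.7% and 16.9% without it. Treated libraries were lower by far more than replicates differed (log2 ratio −1.81 ± 0.33, adjusted p = 3.73e-06, edgeR), and the call held under every alternative run for it. Of the counts of that reference alone, position 16 took 6.29% and 7.77% with 5-ClUrd, against 29.7% and 27.9% untreated. Positions 14 and 15 of the family fell with it. Position 14 had 1.02% and 1.20% with 5-ClUrd, against 6.19% and 5.29% untreated (−2.37 ± 0.60), and position 15 had 5.57% and 6.75%, against 15.4% and 17.8% (−1.43 ± 0.33).

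In the other proline tRNAs position 19 rose, while the share of the whole loop did not pass the test. Position 19 of tRNA-Pro-AGG had 37.5% and 28.4% of the family with 5-ClUrd, against 8.45% and 7.92% untreated (log2 ratio 2.01 ± 0.59, adjusted p = 0.0101, edgeR). Position 19 of tRNA-Pro-CGG had 28.3% and 25.5%, against 9.13% and 9.41% (1.54 ± 0.38, adjusted p = 0.00116, edgeR; −0.50 with TMM factors), and its position 14 had 0.752% and 0.894%, against 4.62% and 4.24% (−2.42 ± 0.76, adjusted p = 0.0189, edgeR). In each case the 2 treated libraries were apart from the 2 untreated ones. Over the 24 D-loop positions tested in proline families, 2 rose and 4 fell.

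**Figure D3:**
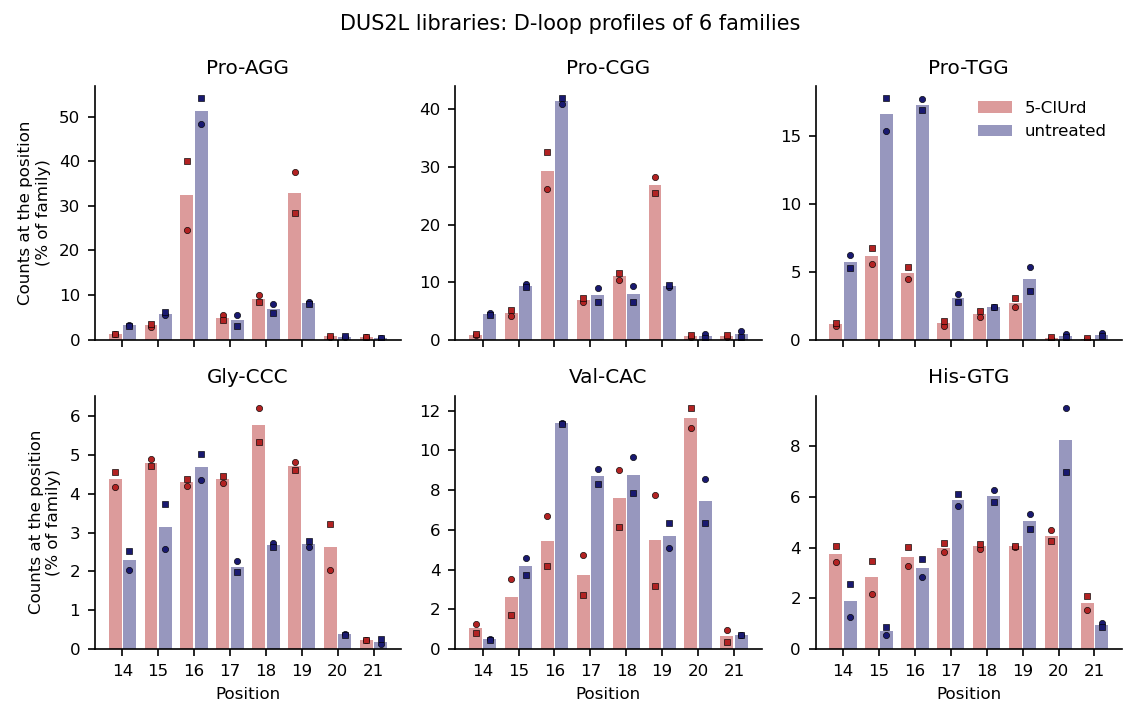
Share of the family's sense counts (%) at D-loop positions 14 to 21 in DUS2L libraries for 6 tRNA families, with 5-ClUrd in red left of untreated in dark blue. Bars are means of 2 libraries, circles are replicate 1 and squares are replicate 2. tRNA-Pro-CGG and tRNA-Pro-TGG are lower with 5-ClUrd at position 14, and tRNA-Pro-AGG and tRNA-Pro-CGG are higher at position 19.

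Valine tRNAs showed falls at positions 15 to 17 as well. In tRNA-Val-TAC, position 16 had 3.81% and 4.43% with 5-ClUrd, against 15.97% and 17.95% untreated (−2.04 ± 0.49), and position 15 had 8.37% and 10.2%, against 20.6% and 23.9% (−1.26 ± 0.36). By the library total the 2 log2 ratios were 0.084 and 0.87. In tRNA-Val-CAC, position 16 had 6.69% and 4.16%, against 11.4% and 11.3% (−1.07 ± 0.24), and position 17 had 4.75% and 2.696%, against 9.08% and 8.32% (−1.22 ± 0.27). Treated and untreated libraries were separate at these 4 positions. Position 20 of tRNA-Val-CAC, the D-loop family position with the most treated DUS2L counts, rose to 11.1% and 12.1% with 5-ClUrd, against 8.54% and 6.36% untreated (0.64 ± 0.22, adjusted p = 0.0368, edgeR). In tRNA-Val-AAC, position 19 had 7.10% and 3.96%, against 0.655% and 2.39% (1.83 ± 0.58, adjusted p = 0.0214, edgeR). Of 23 valine positions tested, 2 rose and 4 fell.

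The histidine tRNA tRNA-His-GTG fell at position 20. It had 4.70% and 4.25% there with 5-ClUrd, against 9.52% and 6.99% untreated (−0.88 ± 0.21, adjusted p = 0.000661, edgeR). Its counts there, 963 and 1042 against 1082 and 1135, were all on 1 reference shared by 9 genes and were close to the highest count of any D-loop site in these libraries, which was 1051 and 1042, against 1082 and 1135. The part of this in the result was not tested. Upstream, position 15 of this tRNA had 2.17% and 3.48% with 5-ClUrd, against 0.572% and 0.874% untreated (1.96 ± 0.40, adjusted p = 6.07e-05, edgeR), and position 14 had 3.43% and 4.05%, against 1.26% and 2.56% (0.97 ± 0.31; −0.15 with TMM factors).

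Rises elsewhere lay at several positions of the loop. Position 18 of tRNA-Gly-GCC had 12.1% and 9.63% with 5-ClUrd, against 4.92% and 4.50% untreated (1.21 ± 0.38), and position 19 of tRNA-Lys-CTT had 13.6% and 13.1%, against 6.81% and 3.74% (1.34 ± 0.39). In tRNA-Leu-AAG, position 15 had 10.6% and 19.3%, against 4.41% and 7.12% (1.37 ± 0.35), and position 14 had 0.499% and 2.89%, against 0.178% and 0.161% (3.30 ± 1.03). Position 14 of tRNA-Gln-CTG had 1.64% and 3.86%, against 0.460% and 0.111% (3.33 ± 0.84). No untreated count was present at 3 called positions. These were position 14 of tRNA-Lys-TTT (0.706% and 1.22% with 5-ClUrd, at least 8.24-fold higher), position 18 of tRNA-Ser-AGA (0.672% and 0.855%, at least 6.84-fold) and position 16 of tRNA-Phe-GAA (2.99% and 1.33%, at least 4.53-fold), where the bound sets 3 counts over both untreated libraries. Position 20 of tRNA-Leu-CAA was called although its libraries overlapped, with 0.541% and 2.90%, against 0.575% and 0.296%.

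Among the falls, position 15 of tRNA-Arg-CCG had 0.580% and 0.857% in DUS2L with 5-ClUrd, against 8.72% and 16.8% untreated. This was the fall with the smallest adjusted p (−4.13 ± 0.60, adjusted p = 1.05e-09, edgeR), and it did not pass without untreated replicate 2. Position 16 of tRNA-Trp-CCA had 0.596% and 0.293%, against 4.61% and 3.70% (−3.23 ± 0.98). Its position 17 had 2 and 1 counts, against 8 and 7, a ratio of 0.0483 (95% counting interval 0.00897 to 0.171). Position 15 of tRNA-Leu-TAG, with many counts, had 7.08% and 11.2%, against 18.9% and 17.1% (−0.98 ± 0.22). Falls at position 16 of tRNA-Ile-TAT, position 17 of tRNA-Ala-CGC and position 15 of tRNA-Thr-TGT rest on few untreated counts, 11 and 7, 5 and 2, and 5 and 7. Scaled to the library total, the log2 ratio of tRNA-Ala-CGC was 0.69 and that of tRNA-Thr-TGT was 1.56.

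The references of a family did not all have the same part of its counts in each library. The called positions were therefore also read within the reference with more of their counts than any other, a description chosen after these results were seen. That reference held between 34.9% and 100% of a position's DUS2L counts, above 50% at 29 of 34, and between 35.1% and 100% of its DUS1L counts, above 50% at 23 of 24. In DUS2L, 17 of the 18 rises and 15 of the 16 falls had separate treated and untreated libraries in the same direction there. The exceptions were position 18 of tRNA-Gly-GCC, with 16.3% and 15.004% of the reference with 5-ClUrd, against 18.9% and 12.9% untreated, and position 17 of tRNA-Ala-CGC, with 1.28% and 0.959%, against 0% and 12.5%. In DUS1L all 24 called positions were higher in every treated library of their leading reference, of which 3 had no count at all in untreated replicate 2. For those 3 the comparison was with untreated replicate 1 alone. Since the leading reference gave most of the counts at most called positions, agreement in both enzymes was largely built in. It is no separate support, and the share over all positions was not computed.

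In DUS1L, 24 of 226 D-loop family positions passed, against 8.12% of all 1662 family positions, and all 24 were rises in 13 families, where 7.4% of all positions rose and 0.722% fell. They were at most 4.27% of their family with 5-ClUrd and at most 0.128% untreated, as group means. Untreated replicate 2 had 0 counts at 22 of the 24, and 7 had none in either untreated library. Position 17 gave 7 of them, positions 19 and 21 gave 4 each, positions 14 and 18 gave 3 each, and positions 15, 16 and 20 gave 1 each. The median log2 ratio over the 226 positions was 2.52, beside 1.53 over all positions, and 1.29, beside 0.50, with positions at 0 set to their bound. In 169 of the 226 the treated libraries lay above the untreated ones, beside 63.2% of all positions. Positions entered the test by counts summed over the 4 libraries, most of them from treated libraries, and 65 of the 226 had no untreated count. Rises were thus favoured in advance, so that the lack of falls, the medians and the separation are no separate support. Leaving out untreated replicate 2 raised the count to 88, leaving out treated replicate 1 lowered it to 3, and no called position passed in all 4 such fits.

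The arginine tRNA tRNA-Arg-ACG had 5 called D-loop positions in DUS1L. Position 18 had 1.18% and 0.463% with 5-ClUrd, against 0% and 0% untreated, at least 24.7-fold higher (adjusted p = 0.000289, edgeR). Position 14 had 1.99% and 1.14%, against 0.0524% and 0.164% (4.51 ± 1.19, adjusted p = 0.00755, edgeR), and position 20 had 2.03% and 1.93%, against 0.170% and 0% (3.85 ± 1.14, adjusted p = 0.0195, edgeR). Treated libraries were the higher ones at each, as at positions 16 and 21 (3.29 ± 1.02 and 2.98 ± 0.97). Among all arginine families, 8 of 40 positions rose, with position 17 of tRNA-Arg-CCT, position 19 of tRNA-Arg-TCT and position 21 of tRNA-Arg-CCG as the other 3.

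Position 15 of the threonine tRNA tRNA-Thr-TGT had 649 and 351 counts in DUS1L with 5-ClUrd, against 0 and 0 untreated. These were 4.62% and 3.93% of the family with the analogue, at least 7.93-fold above untreated (adjusted p = 0.0222, edgeR). Position 14 of tRNA-Ala-AGC had 2132 and 1468 counts, against 2 and 0, which made 3.53% and 3.38%, against 0.0780% and 0%. The ratio of these summed shares was 47.9 (95% counting interval 13.3 to 396). Both positions were near empty without the analogue, where the families had 547 and 2765 counts in all.

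The phenylalanine tRNA tRNA-Phe-GAA and the lysine tRNA tRNA-Lys-TTT had 3 called positions each in DUS1L. In tRNA-Phe-GAA, position 14 had 2.54% and 2.67% with 5-ClUrd, against 0.251% and 0% untreated (3.98 ± 1.20), and position 17 had 1.43% and 1.07%, against 0.0913% and 0% (4.18 ± 1.08). In tRNA-Lys-TTT, position 19 had 3.09% and 2.20%, against 0.132% and 0% (4.40 ± 1.49). Treated libraries were higher at all 3. Position 17 of the isoleucine tRNA tRNA-Ile-AAT had 2.69% and 1.86%, against 0.0802% and 0%, from 2 untreated counts. At position 17, tRNA-Tyr-GTA had 0.725% and 0.836% and tRNA-Met-CAT 0.552% and 0.105% with 5-ClUrd, against 0% in each untreated library, which put them at least 6.71-fold and 6.67-fold higher. Position 21 of tRNA-Tyr-GTA, position 19 of tRNA-Met-CAT and position 17 of tRNA-Trp-CCA were at least 2.87-fold, 2.89-fold and 3.39-fold higher.

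**Figure D4:**
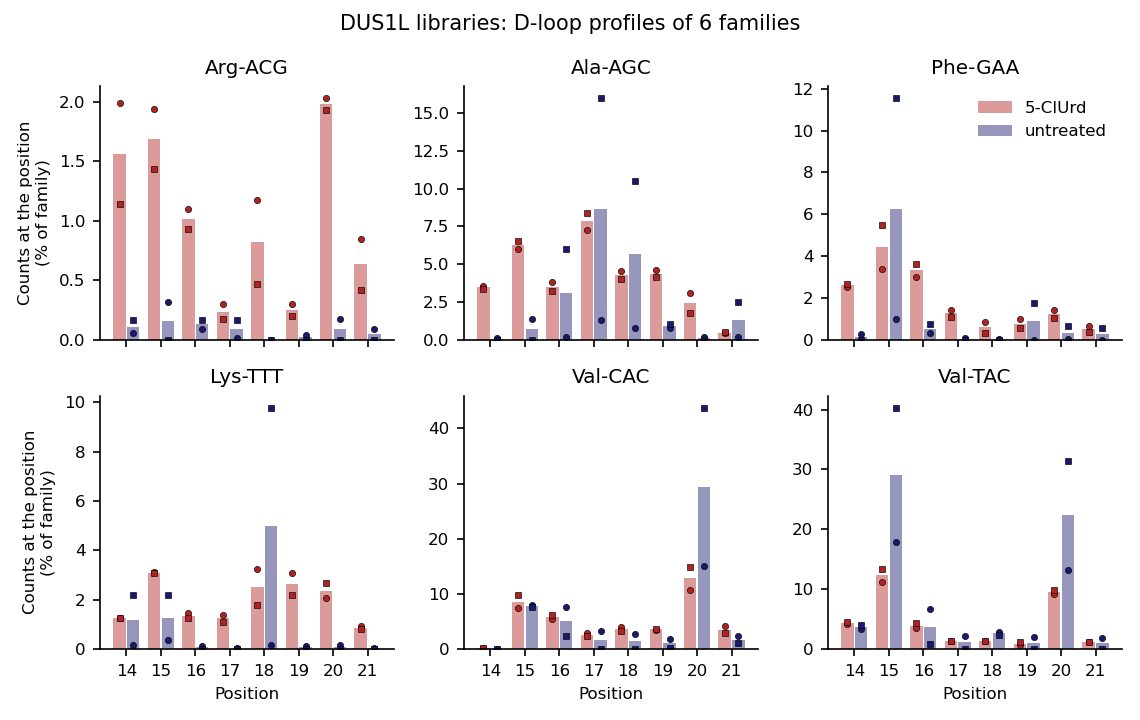
Share of the family's sense counts (%) at D-loop positions 14 to 21 in DUS1L libraries for 6 tRNA families, with 5-ClUrd in red left of untreated in dark blue. Bars are means of 2 libraries, circles are replicate 1 and squares are replicate 2. The squares of untreated DUS1L come from the library with 7395 counts and lie at 0 at many positions.

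The positions with the most counts in DUS1L did not pass the test. Position 17 of tRNA-Ala-AGC had 7.25% and 8.40% with 5-ClUrd, against 1.33% and 16% untreated, so that the untreated libraries lay on either side of the treated ones. Position 20 of tRNA-Val-CAC had 10.8% and 14.9%, against 14.98% and 43.8% (−1.19 ± 0.70, adjusted p = 0.276, edgeR), and position 15 of tRNA-Lys-CTT had 8.24% and 9.34%, against 19.03% and 31.4% (−1.52 ± 0.80, adjusted p = 0.220, edgeR). Untreated values were higher at these, with a large gap between the 2 untreated libraries. Position 17 of tRNA-Ala-TGC had 11.4% and 11.3%, against 3.38% and 0%, and position 15 of tRNA-Ala-AGC had 5.99% and 6.53%, against 1.36% and 0% (adjusted p = 0.165 and 0.0855, edgeR). Position 21 of tRNA-Asn-GTT had 6.11% and 8.83%, against 8.53% and 12.9%, and position 15 of tRNA-Arg-TCT had 3.52% and 4.32%, against 1.62% and 4.01%, both with overlapping libraries. The highest count of any D-loop site in treated DUS1L, 1154 and 1025, was at position 20 of tRNA-Val-CAC. The leading reference had 1093 and 986 counts at position 15 of tRNA-Lys-CTT and 1022 and 990 at position 17 of tRNA-Ala-AGC. Position 17 of tRNA-Ala-TGC was further below, at 731 and 545. The part of this nearness to the highest count in the results was not tested.

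**Figure D5:**
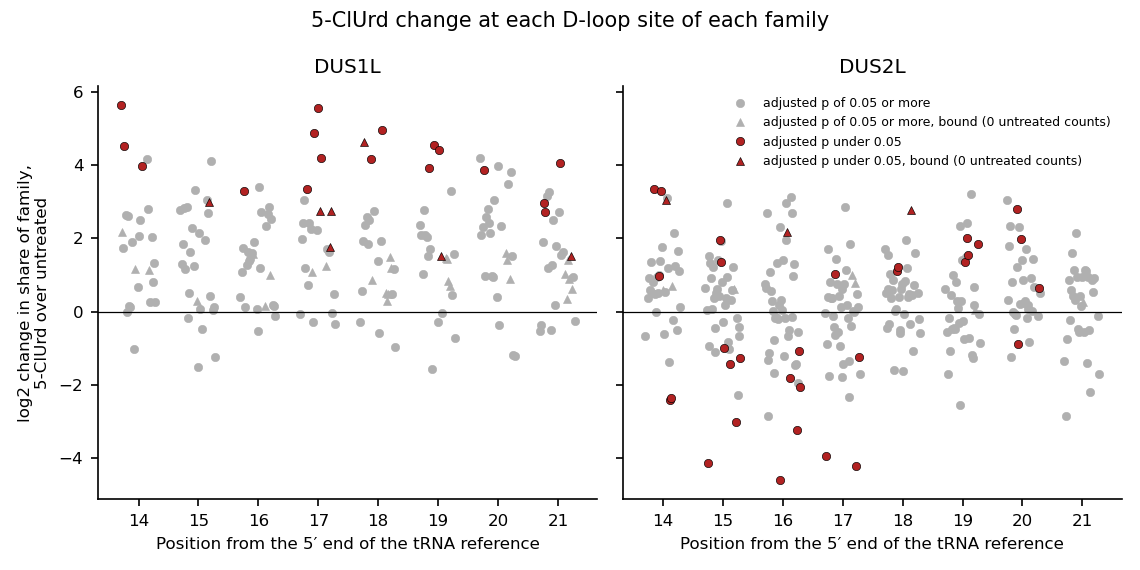
Log2 ratio of the share with 5-ClUrd over the share untreated for each D-loop family position, by position, in DUS1L and DUS2L. Red points passed the adjusted threshold of 0.05, grey points did not, and triangles are lower bounds where untreated libraries had 0 counts. The plot draws 195 of 226 positions in DUS1L and 288 of 317 in DUS2L, since the rest had no untreated count and no bound above 1.

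Summed over the whole window, 5 of 47 families passed in DUS2L, against 12.1% of all 264 family windows, of which 7.58% rose and 4.55% fell. The D-loop share of tRNA-Gly-CCC rose to 30.9% and 31.6% with 5-ClUrd, against 17.2% and 19.3% untreated (0.78 ± 0.15, adjusted p = 0.0282, edgeR), and that of tRNA-Ser-AGA rose to 3.51% and 5.72%, against 0.789% and 1.07% (2.29 ± 0.54, adjusted p = 0.0366, edgeR). The share of tRNA-Pro-TGG fell to 16.2% and 20.2%, against 51.2% and 49.02% (−1.46 ± 0.24, adjusted p = 0.0282, edgeR). Those of tRNA-Val-TAC (27.6% and 31.3%, against 59.1% and 56.8%) and tRNA-Leu-TAG (17.6% and 20.3%, against 34.3% and 30.1%) fell too, by 0.97 and 0.77 on the log2 scale. In all 5 families the treated and untreated libraries were separate, as they were with treated libraries higher in 36% and lower in 26.5% of all windows. With the library total as scaling, 22 windows rose and 6 fell, tRNA-Val-TAC among the higher ones at 1.14, and with reference sites above 500 counts left out none passed and tRNA-Gly-CCC was at −0.60. Each of these calls was lost when some library was left out, and 8 windows passed without treated replicate 1 and 0 without any of the other 3.

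In DUS1L no family passed for the whole window with edgeR, where 0% of all 173 windows did. At an unadjusted p under 0.05 there were 9 of 29, all higher with 5-ClUrd, beside 13.3% of all windows that were higher at that threshold. They were tRNA-Ala-TGC, tRNA-Arg-ACG, tRNA-Arg-CCT, tRNA-Arg-TCG, tRNA-Ile-TAT, tRNA-Ser-TGA, tRNA-Thr-AGT, tRNA-Thr-CGT and tRNA-Thr-TGT. DESeq2 called 4 windows. Without untreated replicate 1 or 2, edgeR called 9 or 20.

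The effect of the analogue was then compared between the enzymes in a fit of all 8 libraries. The names of the DUS2L site files mention a premapping step to non-coding RNA and those of DUS1L do not, so that the enzyme and the making of the files cannot be told apart in any comparison across enzymes. Of 232 D-loop family positions, 6 had a different effect, against 0.989% of all 1719, and all 6 were lower in DUS2L relative to DUS1L (0.64% of all positions). Scaled to the library total or with TMM factors, 4 were higher and 11 lower in either case. The 6 were positions 16 and 17 of tRNA-Trp-CCA and position 15 of tRNA-Thr-TGT, tRNA-Tyr-GTA and tRNA-Arg-CCG, with position 17 of tRNA-Ala-CGC. At some of these the enzymes' counts lay mainly on different references, and effects within a reference were not compared between enzymes. At position 15 of tRNA-Thr-TGT the shares were 0.420% and 1.58%, against 6.25% and 10.0% untreated, in DUS2L, and 4.62% and 3.93%, against 0% and 0% untreated, in DUS1L (adjusted p = 0.00631, edgeR). None of the 6 passed in every fit with a library left out. Leaving out either treated DUS1L library gave 0 calls, either untreated DUS1L library 19 or 17, either treated DUS2L library 3 or 2, and untreated DUS2L replicate 1 gave 1 call. No whole window passed, where 0% of all windows did; 9 of 29 had an unadjusted p under 0.05, beside 14.5% of all windows, and DESeq2 called 2.

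With 5-ClUrd present in both, 60 of 232 D-loop family positions differed between DUS2L and DUS1L, against 21.8% of all positions: 13 were higher in DUS2L (5.29% of all positions) and 47 lower (16.5%). With TMM factors 66 were higher and 49 lower, and in a fit of the 4 treated libraries alone, which keeps families with few untreated DUS1L counts, 71 were higher and 76 lower. Position 15 gave 12 of the 47 lower ones and position 21 gave 11. Arginine tRNAs had 19 of 40 positions lower in DUS2L and none higher, and alanine tRNAs had 8 of 24 lower and none higher. Serine tRNAs had 4 of 24 higher and 1 lower. Leaving out either treated DUS1L library gave 0 calls, untreated DUS1L replicate 1 or 2 gave 91 or 121, and treated DUS2L replicate 1 or 2 gave 17 or 9.

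Position 17 of the methionine tRNA tRNA-Met-CAT had 5.06% and 5.72% in treated DUS2L, against 0.552% and 0.105% in treated DUS1L (4.01 ± 0.96, adjusted p = 0.00197, edgeR). The reference tRNA-Met-CAT-1-1 had 263 and 454 treated DUS2L counts there, against 28 and 6 in treated DUS1L. In DUS1L tRNA-Met-CAT-3-1 had more, 107 and 8. Differences between enzymes were not read within references. Position 20 of tRNA-Ile-AAT had 3.97% and 3.43% in DUS2L, against 0.299% and 0.357% in DUS1L (3.49 ± 0.92, adjusted p = 0.00464, edgeR). Among the highest differences were also position 19 of tRNA-Met-CAT, position 17 of tRNA-Ile-TAT and positions 17 and 18 of tRNA-Ser-CGA, with log2 ratios between 3.40 and 4.17. In the other direction, position 14 of tRNA-Arg-TCG had 0.0723% and 0.0605% in DUS2L, against 1.62% and 1.35% in DUS1L (−4.47 ± 1.14, adjusted p = 0.00352, edgeR), and its position 16 differed by −4.00 ± 1.14. Position 21 of tRNA-Arg-ACG had no count in treated DUS2L, against 0.844% and 0.420% in DUS1L, at least 6.06-fold lower, and its position 19 was at least 2.30-fold lower. Position 19 of tRNA-Cys-GCA had 0.156% and 0.122%, against 3.35% and 1.78% (−4.16 ± 1.11). In each of these, the enzymes' libraries were separate, as at all 60 called positions. Of the 232 D-loop positions, 62 were higher and 122 lower in treated DUS2L without overlap. The separation is thus no further support, and the share over all positions is not given here.

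For whole windows, tRNA-Arg-ACG and tRNA-Arg-TCG were the 2 of 29 families that differed, both lower in DUS2L, against 5.2% of all windows (1.16% higher and 4.05% lower). The D-loop share of tRNA-Arg-ACG was 0.629% and 0.715% in treated DUS2L, against 9.66% and 6.68% in treated DUS1L (−3.60 ± 0.67, adjusted p = 0.0149, edgeR). That of tRNA-Arg-TCG was 0.759% and 0.877% in DUS2L, against 7.34% and 6.58% in DUS1L (−3.09 ± 0.58, adjusted p = 0.0149, edgeR). With the library total as scaling, 2 families were higher and 13 lower. Each call was lost when any of the 4 treated libraries was left out, and with reference sites above 500 counts left out (−1.35 and −0.58). Without untreated DUS1L replicate 1 or 2 the count was 12 or 15. Over all families together, treated DUS2L exceeded treated DUS1L by 2.72 percentage points in D-loop share, whereas with equal weight per family the difference was −3.85 points. With reference sites above 500 counts left out these were 7.72 and 3.39 points, and with each site counted once the second was 2.05 points. By construction the pooled value follows the families with many counts, which were tRNA-Asp-GTC, tRNA-Val-CAC, tRNA-Gly-CCC and tRNA-His-GTG in DUS2L (10.6%, 9.63%, 8.76% and 8.50% of D-loop counts) and tRNA-Ala-AGC, tRNA-Lys-CTT, tRNA-Arg-TCT and tRNA-Val-CAC in DUS1L (13.3%, 8.70%, 8.42% and 7.03%).

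Without the analogue, 32 of 232 D-loop family positions differed, against 7.5% of all positions, with 21 higher in DUS2L (3.26% of all positions) and 11 lower (4.25%). Scaled to the library total, 34 were higher and 72 lower, and in a fit of the 4 untreated libraries alone 3 positions passed. Position 17 gave 9 of the 21 higher and 2 of the 11 lower ones. Untreated DUS1L had no count at 11 of the 21, among them position 17 of tRNA-Met-CAT, with 1.84% and 2.99% in untreated DUS2L (at least 43.8-fold higher), and position 16 of tRNA-Trp-CCA, with 4.61% and 3.70% (at least 72.2-fold higher). Position 15 of tRNA-Arg-TCG had 0% and 0.0811% in untreated DUS2L, against 0.475% and 2.37% in untreated DUS1L (−4.90 ± 1.12, adjusted p = 0.00149, edgeR), and position 14 had 0% and 0%, against 0.232% and 0.264%, at least 8.20-fold lower. Of the whole windows, 4 of 29 differed, against 15% of all, 7.51% in each direction. These were tRNA-His-GTG (32.5% and 31.5% in DUS2L, against 10.0% and 6.67% in DUS1L), tRNA-Ile-TAT (4.68% and 4.43%, against 0.203% and 0%) and tRNA-Ser-CGA (5.73% and 6.05%, against 0% and 0%), which were higher, and tRNA-Arg-TCG (0.643% and 0.746%, against 2.24% and 3.30%), which was lower. The DUS1L shares of tRNA-His-GTG are 8 of 80 and 1 of 15 counts. Untreated DUS1L had 92 and 38 counts of tRNA-Ser-CGA, 1966 and 50 of tRNA-Ile-TAT and 30556 and 1517 of tRNA-Arg-TCG. Without untreated DUS1L replicate 1 or 2, 30 or 41 positions and 8 or 12 windows were called. Leaving out a treated DUS1L library gave 10 called positions, a treated DUS2L library 25 and an untreated DUS2L library 7 or 9, and no called window held throughout. By the library total, 6 windows were higher in DUS2L and 12 lower.

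The authors' peaks, intervals of 2 to 6 bases whose score equals the summed site counts inside them, overlapped the window in each library. There were 60 and 53 such peaks in DUS1L with 5-ClUrd, against 27 and 9 untreated, and 46 and 44 in DUS2L with 5-ClUrd, against 40 and 35 untreated. In DUS1L they were 27.8% and 29.6% of all tRNA sense peaks with 5-ClUrd, against 27.6% and 24.3% untreated. In DUS2L they were 28.2% and 25.1% with 5-ClUrd, against 35.1% and 30.7% untreated. The number of families with a D-loop peak in both libraries of a group was 23 in DUS1L with 5-ClUrd, against 4 untreated, and 20 in DUS2L with 5-ClUrd, against 16 untreated. Every peak had a score of at least 10, so that fewer intervals can reach it in a library with fewer counts, and the part of depth in these numbers was not tested.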

How the data were processed

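The deposited site files give raw whole-number counts per single-base crosslink site and strand, 1 file per library, with no sign of normalization. Peaks were deposited as intervals with a score that equals the summed counts of the sites inside. STAR 2.7.0f and the hg38 build are named in the submitters' processing notes. How sites and peaks were called, whether molecular identifiers were used, which filters applied and whether sites were shifted from the cDNA end is not given in the sources used here. A premapping step to non-coding RNA is named for DUS2L files alone.

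Sense counts at positions 14 to 21 were summed per tRNA family and position. Near-identical gene copies share a reference, so single genes are not reported apart. Of 381 genes named by these references, 359 were found by symbol in RefSeq's annotation of GRCh38.p14, which gave the coordinates. Every position of every family with 10 or more counts summed over the libraries fitted, in families with at least 10 counts in each library, was tested with edgeR 4.0.16 (glmQLFit and glmQLFTest, R 4.3.3) with the log family total as offset, Benjamini-Hochberg adjustment over all positions and a threshold of 0.05. Windows were tested the same way. 5-ClUrd was compared within each enzyme's 4 libraries, and comparisons across enzymes came from a fit of all 8. Standard errors are the log2 ratio divided by the square root of F. Where a group had 0 counts, a bound was computed with 3 counts over the group; with 1 to 3 counts, a ratio with a 95% counting interval. Shares were compared by exact two-sided permutation tests. Replicates are described as biological by the series, and intervals cover counting error only. Replicates of a group differed beyond sampling noise (chi-square per degree of freedom between 6.25 and 38.1).

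The rule for naming took the 8 largest rises and falls among called positions with separate libraries and the 10 positions with most treated counts per enzyme, the 6 largest differences in each direction across enzymes, and the 10 highest and 5 lowest families by treated D-loop share among those with at least 500 counts in each treated library. Alternatives were the library total or TMM factors as scaling, DESeq2 1.42.0, minimum counts of 1 and 50, the replicate number as a block, each library left out, reference sites above 500 counts left out, positions 15 to 22, type II tRNAs (leucine, serine and selenocysteine) left out and each site counted once. The fits were also run on simulated counts with the same spread set for every position and group. The noise between real replicates differed by group, so that these runs are no support for the calls. The members and lists were chosen with earlier results of these data known. Other steps used Python 3.11.15 with scipy 1.17.1, numpy 2.4.6, pandas 2.3.3 and, for figures, matplotlib 3.10.9.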

Additional observations from a re-analysis of the deposited data

Results flagged for a closer look

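At 6 D-loop family positions the effect of 5-ClUrd differed between DUS2L and DUS1L by the interaction test in the fit of all 8 libraries (edgeR), each time lower in DUS2L relative to DUS1L. Position 15 of tRNA-Thr-TGT (adjusted p = 0.00631) had 0.420% and 1.58% of the family in DUS2L with 5-ClUrd, against 6.25% and 10.0% untreated, and 4.62% and 3.93% in DUS1L with 5-ClUrd, against 0% and 0% untreated. Position 17 of tRNA-Trp-CCA (adjusted p = 0.00904) had 0.0795% and 0.0225%, against 1.27% and 0.665%, in DUS2L, and 0.227% and 0.107%, against 0% and 0%, in DUS1L. Its position 16 (adjusted p = 0.0432) had 0.596% and 0.293%, against 4.61% and 3.70%, in DUS2L, and 0.132% and 0.0641%, against 0% and 0%, in DUS1L. Position 15 of tRNA-Tyr-GTA (adjusted p = 0.0281) had 0.313% and 0.748%, against 4.14% and 1.12%, in DUS2L, and 4.52% and 2.75%, against 0.117% and 1.37%, in DUS1L. Position 17 of tRNA-Ala-CGC (adjusted p = 0.0224) had 1.17% and 0.739%, against 25% and 6.25%, in DUS2L, and 9.68% and 11.1%, against 3.67% and 0%, in DUS1L. Position 15 of tRNA-Arg-CCG (adjusted p = 0.00728) had 0.580% and 0.857%, against 8.72% and 16.8%, in DUS2L, and 4.24% and 4.04%, against 3.26% and 0%, in DUS1L. The treated DUS2L libraries were below the untreated ones and the treated DUS1L libraries above the untreated ones at all 6. The 6 were chosen by the test for such a difference, so that this separation is no further support. Some untreated shares rest on few family counts. Untreated tRNA-Ala-CGC had 20 and 32 counts in DUS2L and 327 and 38 in DUS1L. Untreated tRNA-Thr-TGT had 80 and 70 counts in DUS2L and 508 and 39 in DUS1L. At some of the 6 the enzymes' counts lay mainly on different references. At position 15 of tRNA-Arg-CCG, tRNA-Arg-CCG-1-1 had 608 and 428 DUS1L counts, against 144 and 0 untreated. tRNA-Arg-CCG-2-1 led in DUS2L, with 6 and 16, against 88 and 349. At position 17 of tRNA-Trp-CCA all counts were on tRNA-Trp-CCA-2-1 in DUS1L and tRNA-Trp-CCA-4-1 in DUS2L. For position 15 of tRNA-Thr-TGT the leaders were tRNA-Thr-TGT-1-1 and tRNA-Thr-TGT-2-1. The log2 ratio in DUS2L minus that in DUS1L was −6.54 ± 1.78 for tRNA-Tyr-GTA, −5.84 ± 1.53 for tRNA-Ala-CGC and −5.24 ± 1.23 for tRNA-Arg-CCG (SE), and no size is given for the other 3, where untreated DUS1L had 0 counts. None of the 6 passed in every fit with a library left out.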

How the results depend on the processing

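Minimum counts of 1 and 50 kept the number of called positions within 1.5 times in every comparison. The replicate number only names a library: the deviations of same-numbered libraries from their group means correlated at −0.103 and −0.0294 within DUS1L and DUS2L and at 0.0512 and −0.0633 across treated and untreated enzymes. With the replicate block the called positions were 16 in DUS1L, 27 in DUS2L, 4 for the difference of effects, 42 between treated and 14 between untreated enzymes, and the called windows were 0 in DUS2L and 2 between untreated enzymes. Crossing the numbers in DUS1L, chosen after the data were seen, left 0 positions and 0 windows. In the order DUS1L effect, DUS2L effect, difference, treated enzymes and untreated enzymes, the library total as scaling called 94, 130, 15, 139 and 106 positions and 11, 28, 5, 15 and 18 windows, and TMM factors called 56, 108, 15, 115 and 79 positions. The library total moved the median log2 ratio over all positions to 2.53 in DUS1L and 1.36 in DUS2L, and TMM factors to 1.41 and 0.82, where family totals gave 1.53 and 0.56. DESeq2 called 41 positions in DUS1L and 4, 9, 2, 5 and 8 windows. Without reference sites above 500 counts, 14, 19 and 37 positions passed in DUS1L, DUS2L and between treated enzymes, with 0 windows in DUS2L and 1 between treated enzymes. A fit of all 8 libraries called 7 positions in DUS2L. Fits of the 4 treated or untreated libraries alone, added after the data were seen, called 147 and 3 positions and 16 and 0 windows, and a family minimum of 1 count, also added, called 5 windows between treated enzymes.

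With a library left out, called positions were between 3 and 88 in DUS1L, 3 and 45 in DUS2L, 0 and 19 for the difference, 0 and 121 between treated and 7 and 41 between untreated enzymes, and called windows between 0 and 20, 0 and 8, 0 and 7, 0 and 15, and 0 and 12. The lone library of a group is then assumed to vary like the other groups.

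Differences in pooled D-loop share, in percentage points, were 2.81, −2.38, 7.72 and 12.9 (DUS1L effect, DUS2L effect, treated and untreated enzymes) without sites above 500 counts, and −0.679, −0.494 and 2.68 (DUS1L, DUS2L, untreated enzymes) with each site counted once. Without type II tRNAs they were −2.40, 5.71 and 15.8 (DUS2L, treated, untreated), and with positions 15 to 22 the treated enzymes differed by 3.28. With equal weight per family they were −2.10, 3.39 and 9.35 (DUS2L, treated, untreated) without sites above 500 counts, 0.0320 and 2.05 (DUS1L, treated) with each site counted once, −0.168 and −3.17 (DUS2L, treated) with positions 15 to 22 and −4.65 (treated) without type II tRNAs. Leaving out a library gave 4.35 to 8.08, 0.275 to 1.13, 2.54 to 2.91 and 6.37 to 10.1 points pooled, and 3.84 to 8.41, 0.0161 to 0.798, −4.38 to −3.32 and −0.417 to 4.15 with equal weight.

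Single values that changed sign in DUS1L were position 17 of tRNA-Ala-AGC (1.46 with the library total, 0.38 with TMM, 0.76 with the replicate block and with crossed numbers, 6.38 without sites above 500 counts, between −1.03 and 2.56 with a library left out) and its position 18 (1.24, 0.15, 0.58, 0.18 and −1.29 to 2.46 in the same order), highest without untreated replicate 2. Position 14 of tRNA-Arg-TCT was −0.89 with TMM, −0.23 without sites above 500 counts and between −0.64 and 1.63 with a library left out, and its position 15 was −0.69 with TMM and between −0.033 and 1.27 with a library left out, lowest without untreated replicate 1. Position 21 of tRNA-Asn-GTT was 0.82 with the library total and position 15 of tRNA-Lys-CTT 0.38 without sites above 500 counts. In DUS2L, position 15 of tRNA-Asp-GTC was −0.29, −0.87 and −0.43 with the library total, TMM and without sites above 500 counts, its position 16 −0.095, −0.67 and −0.26, and position 16 of tRNA-Gly-TCC 1.54, 0.97 and 0.24, with −0.44 to 0.077 when a library was left out, highest without untreated replicate 2. With the library total and TMM, position 17 of tRNA-Ala-CGC was 0.69 and 0.11, position 15 of tRNA-Thr-TGT 1.56 and 1.03, and position 15 of tRNA-Val-TAC 0.87 and 0.31 (0.10 without sites above 500 counts). With the library total, position 16 of tRNA-Val-TAC was 0.084 and its window 1.14, and positions 18 and 19 of tRNA-Val-CAC were 0.20 and 0.37. With a library left out they were between −0.50 and 0.042 and between −0.85 and 0.44, highest without treated replicate 2, and position 19 was 0.11 without untreated replicate 2 and 0.16 without sites above 500 counts. With TMM, position 14 of tRNA-His-GTG was −0.15 and position 19 of tRNA-Pro-CGG −0.50. Without sites above 500 counts, positions 17 and 20 of tRNA-Gly-CCC were −0.078 and −2.35 and its window −0.60. Of all single values and alternatives, 1057 kept direction and side of the threshold, 488 lost the call, 23 gained one and 49 changed sign. The causes were not tested. Untreated DUS1L replicate 2 has 7395 counts in all, so that 3 counts are 0.0409% of its tRNA sense counts.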
